A study of Mus musculus with 8 samples.

Results

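The TGF-beta and SMAD signalling genes examined here were 10 transcripts chosen by gene symbol, *Tgfb1*, *Tgfb2*, *Tgfbr1*, *Tgfbr2*, *Smad2*, *Smad3*, *Smad4*, *Smad6*, *Smad7* and *Ski*, out of 11558 genes with an m6A peak in mouse liver. In the lists of peaks, 9 of the 10 genes had a peak in *Wtap* flox/flox livers (22 peaks) and all 10 had one in *Wtap*-HKO livers (28 peaks). Each of the 22 control peaks overlapped a peak in *Wtap*-HKO livers, whereas 19.9% of all control peaks overlapped none. Of the 28 *Wtap*-HKO peaks, 8 in 7 genes overlapped no control peak, beside 35.3% of all *Wtap*-HKO peaks. The deposited list of differential peaks held 3 peaks of these genes, in *Tgfbr2*, *Smad6* and *Smad7*. All had higher enrichment by the m6A antibody in *Wtap*-HKO livers and all lay at the 5´ end of the gene. A higher differential peak was listed for 12.6% of all genes with a peak. Of all higher differential peaks placed on a gene, 48.7% lay within 200 nt of the 5´ end.

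m6ARIP-seq maps methylated adenosine by sequencing mRNA fragments pulled down with an m6A antibody (IP) beside fragments taken before the pull-down (input). The paper identified the GGACU motif, the usual m6A motif, under control peaks and did not find it under *Wtap*-HKO peaks. A peak here shows enrichment by the antibody, and whether it holds methylated adenosine was not tested. All mice were C57BL/6, 8 weeks old, fed normal chow, and homozygous for the floxed *Wtap* allele. *Wtap*-HKO mice additionally carried *Alb*-Cre, a recombinase under the albumin promoter that acts in hepatocytes, so that stellate, endothelial and Kupffer cells of the same livers keep *Wtap*. Each genotype had 2 IP and 2 input libraries from whole liver, each pooled from 5 mice, 8 libraries in all. The deposited lists give 1 combined value per peak and genotype and no read totals, so the depth is unknown, no value carries an SD, and whether a difference exceeds the variation among replicate libraries could not be tested. In bulk liver, fewer cells of a type and less RNA per cell cannot be told apart. A fold enrichment is IP over input on a linear scale, and a log10 false discovery rate is the score that the peak caller exomePeak derives from reads, which does not measure variation among mice.

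TGF-beta ligands bind the type II receptor TGFBR2, which activates the type I receptor TGFBR1, and this kinase phosphorylates SMAD2 and SMAD3. These join SMAD4 and enter the nucleus, where SKI holds back their target genes, while SMAD6 and SMAD7 are inhibitors made in response to the pathway. In liver the pathway is known for turning stellate cells into matrix-producing cells. WTAP is a subunit of the complex that writes m6A into nascent mRNA, and m6A is usually densest near the stop codon.

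The targeted gene, *Wtap*, kept 3 peaks in each list. The one near its 3´ end was in the list of differential peaks, lower in *Wtap*-HKO (log2 fold change -0.74, exomePeak false discovery rate 3.2e-10), with a fold enrichment of 8.06 in control and 4.47 in *Wtap*-HKO. The other peaks of *Wtap* were not in that list. One had a fold enrichment of 20.7 in control and 20.5 in *Wtap*-HKO, and the other had 8.78 in control and 20.6 in *Wtap*-HKO. These values describe enrichment of the transcript and do not measure the deletion itself.

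Among the ligands, *Tgfb1* (ENSMUSG00000002603), the main profibrogenic ligand, lies on the plus strand of chromosome 7 of GRCm38 from 25687002 to 25705077. Control livers had 1 peak, of 329 nt, from 25687300 to 25687628 (fold enrichment 14.2, log10 false discovery rate -59.6). In *Wtap*-HKO livers the peak at this site reached from 25687091 to 25687957 and covered 867 nt (fold enrichment 23.7, log10 false discovery rate -219). Its 5´ edge lay 89 nt from the 5´ end of the gene, and that of the control peak 298 nt. The site was thus higher and longer in *Wtap*-HKO, and it was not in the list of differential peaks. The other peaks of *Tgfb1* were listed for *Wtap*-HKO only. One covered 120 nt next to the first (25688106 to 25688561, fold enrichment 2.35). Another covered the final 210 nt of the gene (25704868 to 25705077, fold enrichment 6.1). In all, peaks covered 1197 nt of *Tgfb1* in *Wtap*-HKO, 3.64 times the control length.

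*Tgfb2* (ENSMUSG00000039239), a second ligand of the same receptors, lies on the minus strand of chromosome 1. Its control peak covered 180 nt near the 3´ end (186624792 to 186624971, fold enrichment 24.6), with a log10 false discovery rate of -5.6. In *Wtap*-HKO the same site was longer (330 nt) and lower, at a fold enrichment of 13.6, with a log10 false discovery rate of -29.9. A neighbouring peak of 151 nt (186625239 to 186625389, fold enrichment 7.68) was found only in *Wtap*-HKO. Unlike *Tgfb1*, *Tgfb2* had no peak at its 5´ end in either list.

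Of the receptors, *Tgfbr1* (ENSMUSG00000007613, chromosome 4, plus strand), the type I receptor kinase, had 0 peaks in control livers. In *Wtap*-HKO livers it had 1 peak of 120 nt (47410706 to 47410825, fold enrichment 4.16, log10 false discovery rate -11.9), placed at 93.3% of the gene span. It was the only one of the 10 genes with peaks in *Wtap*-HKO only, beside 2538 of all 11558 genes (22%).

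*Tgfbr2* (ENSMUSG00000032440, chromosome 9, minus strand), the ligand-binding receptor, had 2 control peaks, both also found in *Wtap*-HKO. The peak nearest the 3´ end had a fold enrichment of 10.1 in control and 8.21 in *Wtap*-HKO (116090020 to 116092978). The peak upstream of it had a fold enrichment of 7.47 in control and 4.86 in *Wtap*-HKO (116109596 to 116110165). Both sites were lower in *Wtap*-HKO, and neither was in the list of differential peaks. The peak that differed lay at the other end of the gene, where control livers had none. In the *Wtap*-HKO list it covered 241 nt (116175030 to 116175270, fold enrichment 2.99, log10 false discovery rate -18.1), beginning 93 nt from the 5´ end. In the list of differential peaks, this site (116175030 to 116175300) had a log2 fold change of 1.38 (2.6-fold, exomePeak false discovery rate 3.5e-05).

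*Smad6* (ENSMUSG00000036867, chromosome 9, minus strand) encodes an inhibitory SMAD best known for restraining BMP signalling, and it had the largest gain in length under peaks among the 10 genes. Its peaks covered 332 nt in control and 1829 nt in *Wtap*-HKO, a ratio of 5.51. At the 5´ end, the control list had a peak of 151 nt (64021909 to 64022059) with a fold enrichment of 51.8, the highest of the 22 control peaks. Its log10 false discovery rate was -13.6. *Wtap*-HKO had 2 peaks there. The first covered 540 nt (64021520 to 64022059) at a fold enrichment of 14.1 (log10 false discovery rate -37.9). It shared 28% of its exonic bases with the control peak, so these fold enrichments cover unlike lengths. The second covered 899 nt (64020442 to 64021340) at 22.9 (log10 false discovery rate -110), with no control counterpart. The list of differential peaks joined this stretch into 1 peak of 1648 nt (64020412 to 64022059), with a log2 fold change of 1.26 (2.39-fold, exomePeak false discovery rate 1.1e-09). The listed direction therefore holds for the whole stretch, while the fold enrichment of the peak at its 5´ edge was lower in *Wtap*-HKO. At the 3´ end, the *Smad6* site from 63953316 to 63953705 had a fold enrichment of 4.22 in control and 9.06 in *Wtap*-HKO. By ratio (2.15) this was the largest increase among the sites found once in each list, and it was not in the list of differential peaks.

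The starts of *Smad6* and *Tgfbr2* are shown because their 5´ peaks differed between the genotypes. *Smad7*, whose 5´ peak also differed, is not shown because RefSeq's table gave no start for it. The sequences are those of RefSeq on GRCm38.p6, minus strand, with 250 bases before the transcript start in lower case and the first 30 transcribed bases in capitals (chr9:64022030-64022309 for *Smad6* and chr9:116175334-116175613 for *Tgfbr2*).
*Smad6*: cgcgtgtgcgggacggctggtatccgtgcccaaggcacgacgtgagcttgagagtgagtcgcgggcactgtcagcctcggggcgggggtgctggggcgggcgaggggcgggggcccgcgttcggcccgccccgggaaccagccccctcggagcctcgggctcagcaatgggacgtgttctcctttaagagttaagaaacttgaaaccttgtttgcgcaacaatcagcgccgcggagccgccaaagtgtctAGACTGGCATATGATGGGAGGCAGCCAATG
*Tgfbr2*: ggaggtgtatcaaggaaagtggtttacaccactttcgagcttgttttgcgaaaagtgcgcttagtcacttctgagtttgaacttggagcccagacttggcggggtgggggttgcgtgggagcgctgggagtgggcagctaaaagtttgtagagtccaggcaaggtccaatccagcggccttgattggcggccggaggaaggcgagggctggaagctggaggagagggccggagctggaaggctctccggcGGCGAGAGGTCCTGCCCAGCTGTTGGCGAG
The capitals of *Smad6* lay inside its peak in both genotypes, whose 5´ edge sat 0 nt from this transcript start. Those of *Tgfbr2* lay outside its peak, which began 93 nt downstream. The palindromic SMAD binding element GTCTAGAC, searched on both strands (it reads the same on each), spans the start of *Smad6*, from 4 bases before it. It occurred in 0.213% of all 32851 windows of 300 bases (250 before and 50 after a start). Among the windows of the 7 genes here that RefSeq's table covers it occurred only in that of *Smad6*. *Smad2*, *Smad4* and *Smad7* had no window and were not searched, so whether the element lies at their starts is unknown here. The windows held 66.3% G and C for *Smad6* and 59% for *Tgfbr2*, beside a median of 52.7% over all windows.

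*Smad7* (ENSMUSG00000025880, plus strand of chromosome 18), the inhibitory SMAD that blocks and removes the TGF-beta receptors, had 2 control peaks and 3 in *Wtap*-HKO. The additional peak lay 164 nt from the 5´ end (75367529 to 75368008, 480 nt, fold enrichment 17.6, log10 false discovery rate -48.9). In the list of differential peaks it had a log2 fold change of 1.34 (2.53-fold, exomePeak false discovery rate 3.3e-05). The next site (75368786 to 75369445) had a fold enrichment of 9.54 in control and 12.1 in *Wtap*-HKO. The site near the 3´ end (75393959 to 75394408) had 5.97 in control and 5.71 in *Wtap*-HKO. The gain in *Smad7* was thus at the 5´ end, and the 3´ site kept nearly the same fold enrichment.

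The listed changes of *Tgfbr2*, *Smad6* and *Smad7* were of ordinary size for that list. Among its 1556 higher peaks, their log2 fold changes sat at percentiles 66.5, 57.7 and 63.6, and their p-values ranked 1132, 633 and 1128. Of all genes with a peak, 12.6% had a higher differential peak at any fold change and 8.25% had one with a log2 fold change over 1, beside 3 of the 10 genes at either of these thresholds. With a log10 false discovery rate of the difference under -5, 1 of the 3 peaks was left, that of *Smad6*, and those of *Tgfbr2* and *Smad7* were not. A lower differential peak was listed for 16.8% of all genes with a peak and for 0 of these 10. At the level of peaks, 15.2% of all control peaks overlapped a lower differential peak, and 0 of the 22 control peaks of these genes did. A higher differential peak was overlapped by 1 of the 22 control peaks, beside 1110 of all 15635. Of the 28 *Wtap*-HKO peaks 4 overlapped one, beside 1635 of all 19185. Each of the 3 higher differential peaks began less than 200 nt from its gene's 5´ end. So did 48.7% of all higher differential peaks that could be placed on a gene.

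The receptor-activated SMADs changed little in number of peaks. *Smad2* (ENSMUSG00000024563) had 2 sites in both lists. The upstream site had a fold enrichment of 2.51 in control and 2.34 in *Wtap*-HKO (76262566 to 76286877 on chromosome 18). The site towards the 3´ end had 8.61 in control and 9.62 in *Wtap*-HKO (76302634 to 76304956). The ratios of *Wtap*-HKO over control at these sites were 0.932 and 1.12, and neither was in the list of differential peaks.

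*Smad3* (ENSMUSG00000032402, chromosome 9, minus strand), the SMAD most closely tied to fibrotic gene expression, carried 5 control peaks and 4 in *Wtap*-HKO, all in the final part of the gene. From the 3´ end, the site from 63647126 to 63647546 had a fold enrichment of 8.78 in control and 7.34 in *Wtap*-HKO. The next (63648654 to 63648953) had 11.7 in control and 7.63 in *Wtap*-HKO. The third (63649253 to 63649552) had 4.1 in control and 3.4 in *Wtap*-HKO. These sites were each lower in *Wtap*-HKO, at 0.836, 0.652 and 0.829 of the control value. The 2 control peaks farther upstream (fold enrichment 4.25 and 7.03) were 1 peak of 540 nt in *Wtap*-HKO (63649732 to 63650271, fold enrichment 7.51). None of these sites was in the list of differential peaks, and *Smad3* and *Smad2* were the 2 genes with less length under peaks in *Wtap*-HKO (1322 against 1442 nt and 479 against 509 nt).

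*Smad4* (ENSMUSG00000024515, chromosome 18, minus strand), the common partner of the receptor-activated SMADs, had 2 sites in both lists. At its 5´ end (73703451 to 73703780) the fold enrichment was 4.54 in control and 5.24 in *Wtap*-HKO. The site farther along the gene (73677714 to 73678013) had 4.24 in control and 4.54 in *Wtap*-HKO. *Smad4* therefore had a peak at its 5´ end in both genotypes without a listed difference.

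*Ski* (ENSMUSG00000029050, chromosome 4, minus strand), the corepressor of the SMAD complex, had 5 peaks in each list. The strongest (155156766 to 155157364) had a fold enrichment of 15.5 in control and 12.3 in *Wtap*-HKO. Its neighbours towards the 3´ end had 5.51 in control and 5.97 in *Wtap*-HKO, and 3.51 in control and 3.65 in *Wtap*-HKO. At the 5´ end, the 2 control peaks of 360 and 210 nt (fold enrichment 6.73 and 6.49) were joined in *Wtap*-HKO into 1 peak of 1047 exonic nt at 6.87. A weak peak of 300 nt was found only in *Wtap*-HKO (155157453 to 155158168, fold enrichment 2.14). The 3´ cluster of *Ski* thus kept its order of strength, and the 5´ site became longer at a similar fold enrichment.

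**Figure D1:**
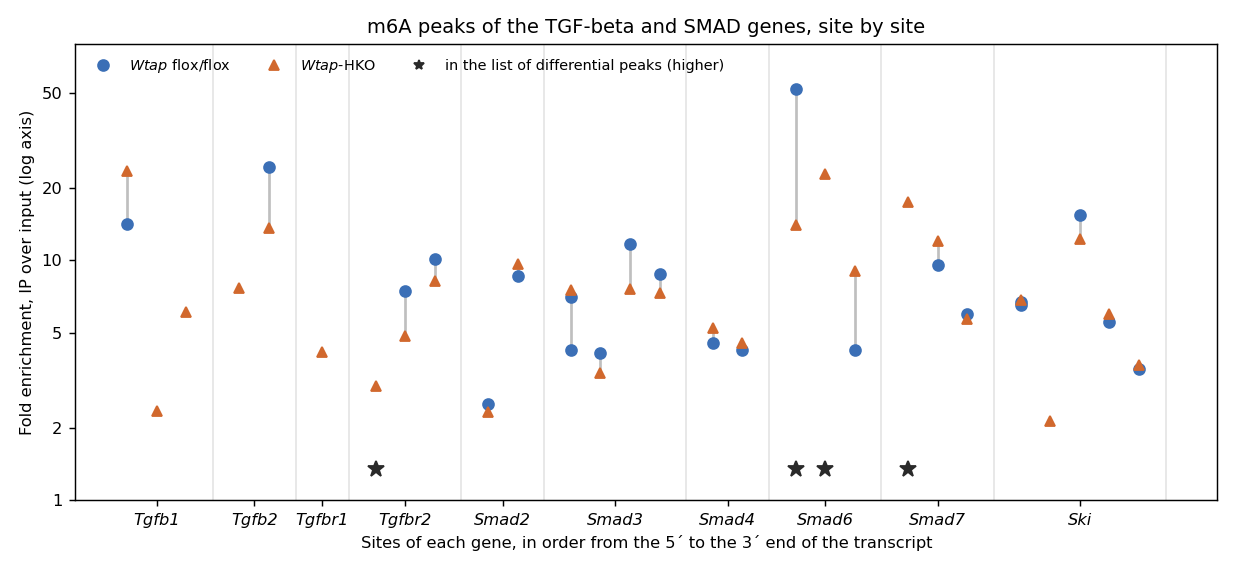
Fold enrichment of IP over input (log axis) at each of the 28 sites of the 10 genes, ordered from the 5´ to the 3´ end within a gene. Circles are *Wtap* flox/flox peaks and triangles *Wtap*-HKO peaks, 1 combined value each, joined by a line within a site, and stars mark sites in the list of differential peaks. Sites with a triangle and no circle number 8, and no site has a circle alone.

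Across the 10 genes the 50 peaks formed 28 sites. At 18 sites 1 control peak met 1 *Wtap*-HKO peak, 2 sites held several peaks of a genotype, 8 sites were in the *Wtap*-HKO list only and 0 in the control list only. Over all genes, 19.9% of control peaks shared no exonic base with a *Wtap*-HKO peak, beside 0 of 22 here. Conversely, 35.3% of all *Wtap*-HKO peaks shared no base with a control peak, beside 8 of 28 here. When at least 50% of the exonic bases of a peak had to be shared, 17 of the 28 *Wtap*-HKO peaks were shared, against 20 with 1 base. At the 18 sites with 1 peak in each list, the fold enrichment was higher in *Wtap*-HKO at 8 and lower at 10. The median log2 ratio of *Wtap*-HKO over control was -0.08 (lowest -1.88 in *Smad6*, highest 1.10 in *Smad6*), against 0.01 over 10499 such pairs of all genes, whose quartiles were -0.58 and 0.66. The fold enrichments of shared sites in these genes thus moved in both directions, and their median lay between the quartiles of all genes.

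**Figure D2:**
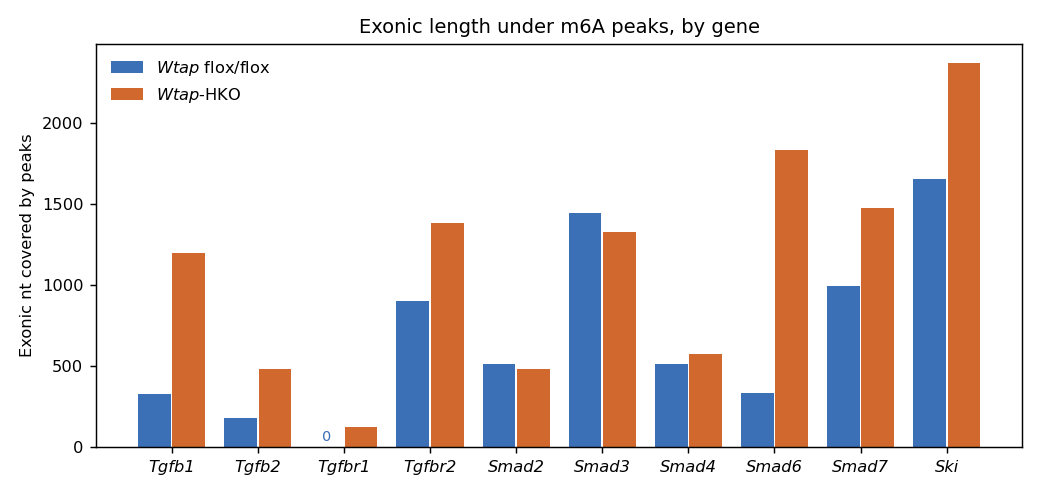
Exonic nt covered by peaks in each gene, as 1 combined value per genotype (bars from 0). *Wtap*-HKO bars exceed control bars in 8 of 10 genes, most in *Smad6* (1829 against 332 nt), and *Smad2* and *Smad3* are the exceptions.

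The length under peaks differed more than the fold enrichment. Peaks of the 10 genes covered 6844 nt in control and 11217 nt in *Wtap*-HKO (1.64 times), beside 5131 kb and 6137 kb over all genes (1.2 times). The length rose in 8 genes and fell in 2, and *Smad6* alone gained 1497 nt, most of it at the 5´ end. The share of all genes that gained length was not counted. Read totals are unknown, so the part of depth in these lengths was not tested. The log10 false discovery rate was -21.8 in control and -55.2 in *Wtap*-HKO at the *Ski* site with fold enrichments of 3.51 and 3.65. At the *Smad3* site with 11.7 and 7.63 it was -57.2 and -49. The mean fold enrichment was 10.1 over the 22 control peaks, which include the *Smad6* peak at 51.8, and 8.35 over the 28 *Wtap*-HKO peaks. The medians had the other order, 6.88 in control and 7.11 in *Wtap*-HKO. Over all peaks the mean was 8.23 in control and 10.5 in *Wtap*-HKO, and the median 5.51 and 5.93. By place, the first 10% of the gene span held 1800 nt of peak in control and 5178 nt in *Wtap*-HKO, a ratio of 2.88, where all genes gave 2.05. The final 10% held 4087 nt in control and 5017 nt in *Wtap*-HKO, a ratio of 1.23, where all genes gave 1.05. In the 80% between, the lengths were 957 and 1022 nt. The 5´ end thus held 26.3% of the peak length of these genes in control and 46.2% in *Wtap*-HKO, and the corresponding shares over all genes were 9.99% and 17.1%. Both the 10 genes and the whole lists had more of their peak length at the 5´ end in *Wtap*-HKO. By number of peaks the share of the 10 genes hardly changed. Midpoints in the first 10% of the span numbered 6 of 22 in control (27.3%) and 8 of 28 in *Wtap*-HKO (28.6%). Over all placed peaks these shares were 13.7% and 20.9%.

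**Figure D3:**
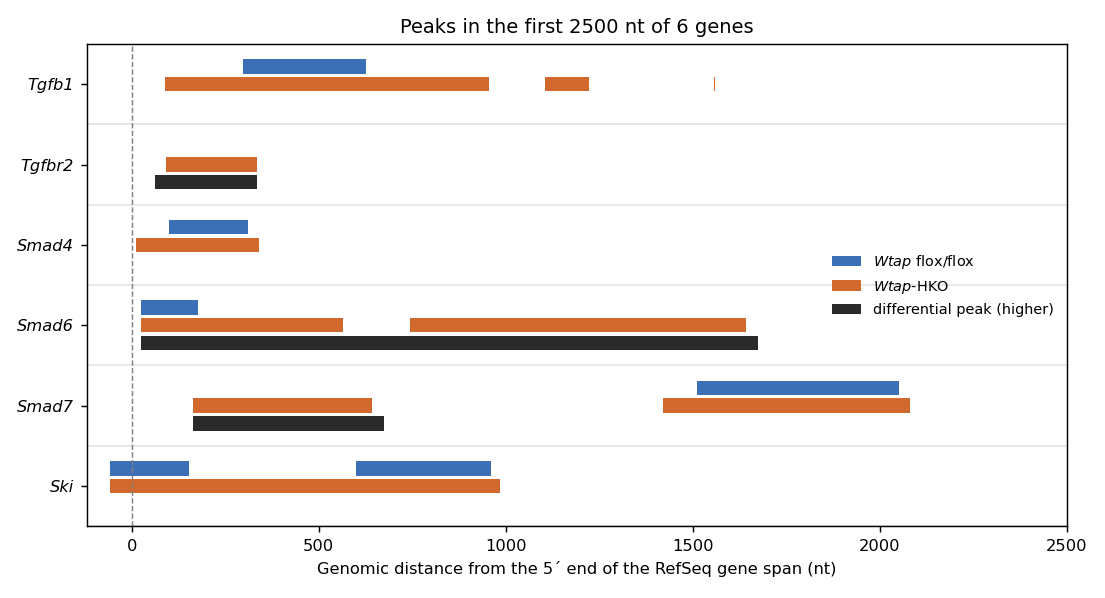
Peaks within the first 2500 nt of the 6 genes that had a *Wtap*-HKO peak near the 5´ end, as genomic distance from the 5´ end of the RefSeq span (dashed line at 0). Bars are exonic blocks of control, *Wtap*-HKO and differential peaks, and the *Wtap*-HKO peaks of *Tgfb1*, *Smad6* and *Ski* extend past the control peaks at the same site, while *Tgfbr2* and the first *Smad7* site have no control bar.

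Within 200 nt of the 5´ end lay 3 control peaks (*Smad4*, *Smad6* and *Ski*) and 6 *Wtap*-HKO peaks (the same genes with *Tgfb1*, *Tgfbr2* and *Smad7*). Over all genes 10.9% of placed control peaks and 18.5% of placed *Wtap*-HKO peaks lay within 200 nt. Of the 8 peaks listed only for *Wtap*-HKO, those of *Tgfbr2* and *Smad7* lay within 200 nt of the 5´ end, 2 of 8, and the share for all such peaks was 27.5%. The others were at 745 nt in *Smad6*, at 1104 nt in *Tgfb1*, or in the 3´ part of *Tgfb1*, *Tgfb2*, *Tgfbr1* and *Ski*. The peaks new to the *Wtap*-HKO list were therefore spread over both ends of these transcripts.

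**Figure D4:**
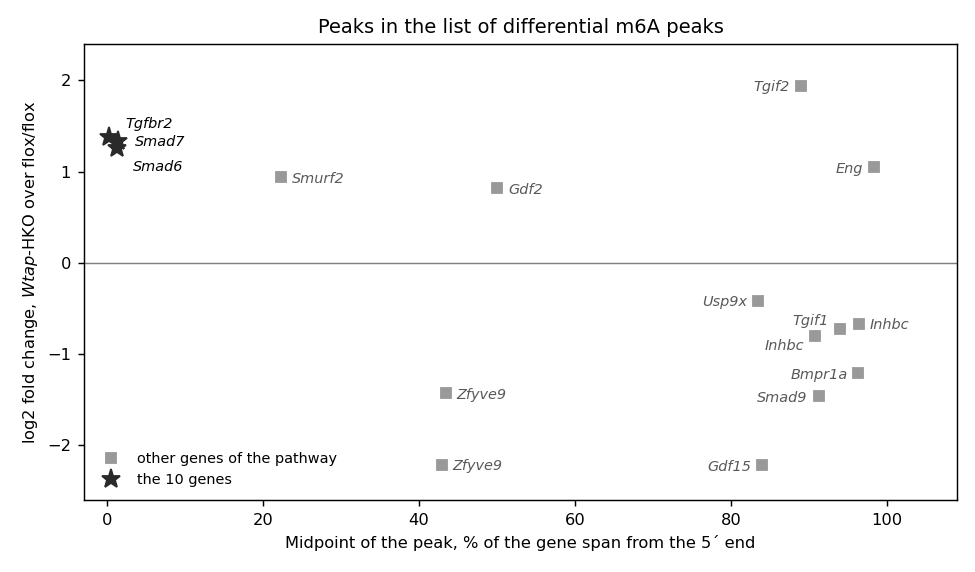
Log2 fold change of *Wtap*-HKO over *Wtap* flox/flox (vertical axis) against the midpoint of the peak as % of the gene span (horizontal axis), for each peak in the list of differential peaks that belongs to the 10 genes (stars) or to the other genes of the pathway (squares). The 3 stars lie at the 5´ end between 1.26 and 1.38, and the squares below 0 lie between 42.9 and 96.4% of the span.

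The other genes of the pathway were 67 ligands, receptors, SMADs, regulators and targets, of which 50 had a control peak and 52 a *Wtap*-HKO peak. With 56 genes carrying a peak in either list, 4 (7.14%) had a higher and 7 (12.5%) a lower differential peak, beside the 12.6% and 16.8% of all genes. With a log2 fold change beyond 1 in size, 2 genes had a higher and 4 a lower differential peak. At any fold change, both shares were under those of all genes, and the lower peaks here, in contrast to the 10 genes, outnumbered the higher ones.

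Higher peaks were listed for *Gdf2*, *Eng*, *Tgif2* and *Smurf2*. *Gdf2*, which encodes the circulating ligand BMP9, had a log2 fold change of 0.82 over a peak of 2988 nt (exomePeak false discovery rate 1.0e-32, fold enrichment 22.7 in control and 63 in *Wtap*-HKO). *Eng*, which encodes the coreceptor endoglin, had 1.05 at its 3´ end (exomePeak false discovery rate 1.0e-49). *Tgif2*, a corepressor gene, had 1.94. *Smurf2*, a ubiquitin ligase that works with SMAD7 to remove the receptors, had 0.94 for a peak that began 32 nt from the 5´ end. The peak of *Gdf2* spanned its gene from end to end.

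Lower peaks were listed for *Zfyve9*, *Smad9*, *Bmpr1a*, *Gdf15*, *Inhbc*, *Tgif1* and *Usp9x*. *Zfyve9*, which encodes the anchor SARA for SMAD2 and SMAD3, had 5 peaks in control and 0 in *Wtap*-HKO, with log2 fold changes of -2.21 and -1.43 at its listed peaks. *Smad9*, a BMP-responsive SMAD, had 2 control peaks and 0 in *Wtap*-HKO (-1.46), and the type I receptor gene *Bmpr1a* had -1.21. The stress-induced ligand gene *Gdf15* had -2.22, with a highest fold enrichment of 7.57 in control and 1.64 in *Wtap*-HKO. *Inhbc*, an activin subunit gene of hepatocytes, had -0.80 and -0.66. *Tgif1* had -0.72 and the deubiquitinase gene *Usp9x* -0.42. Beyond these, *Smad5* and *Ltbp4* had a peak in control only. *Tgfb3*, *Bmp6*, *Ltbp2*, *Acvrl1*, *Nedd4l* and *Thbs1* had peaks in *Wtap*-HKO only. They were 6 of the 56 pathway genes with a peak, a smaller share than the 22% of all genes. *Tgfb3*, the third ligand of the family, had 3 such peaks and *Acvrl1*, an endothelial type I receptor gene, had 1 with a fold enrichment of 71.4.

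Markers of liver cell types were looked up in the same lists, where a peak shows enrichment of the transcript and not its level. Peaks were present for 3 of 5 hepatocyte markers in control and 4 in *Wtap*-HKO, with *Cps1* at 0 in both. For stellate cells the counts were 3 and 5 of 7, with *Dcn* and *Col1a1* in *Wtap*-HKO only and *Acta2* and *Reln* at 0 in both. Endothelial markers had 3 and 3 of 4 (*Stab2* at 0), Kupffer cell markers 2 and 3 of 4 (*Adgre1* at 0), and cholangiocyte markers 1 and 2 of 4 (*Krt19* and *Krt7* at 0). Among hepatocyte markers, *Alb*, *Ttr* and *Hnf4a* had a higher differential peak, and *Apoa1* and *Hnf4a* a lower one. The stellate marker *Lrat* had 2 higher differential peaks and the Kupffer marker *Csf1r* 1. The other stellate and Kupffer markers and all endothelial and cholangiocyte markers listed had 0. Of all genes with a peak, 22% had peaks in *Wtap*-HKO only, 12.6% a higher differential peak and 16.8% a lower one. The part of cell composition in the peaks of the 10 genes was not tested.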

How the data were processed

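Paired-end reads of 150 bp were mapped by the authors with BWA mem 0.7.12 against GRCm38, and peaks were called with exomePeak. fastp 0.19.11 and HOMER 4.9.1 are also named in the submitters' processing notes. The deposited values are a linear fold enrichment (a ratio of IP over input, library scaling not given in the sources used here), log10 scores of p and false discovery rate, and, in the list of differential peaks, the log2 fold change and log10 scores of the authors' comparison. For that list the authors' methods give p under 0.01 and a fold change over 1. A figure legend of the paper gives an absolute log2 fold change over 1 instead. The deposited list also holds smaller changes, with log2 fold changes down to 0.32 among its higher peaks. How replicates were combined is not given in the sources used here.

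Peaks were taken by gene symbol and compared by exonic bases shared on the same strand (at least 1). Starts are 1-based. Positions refer to RefSeq gene spans on GRCm38.p6, which take no account of the isoform in liver, and promoter sequences are from RefSeq. No test across replicates could be made, and the false discovery rates printed are those of exomePeak in the deposited list. The 10 genes and the pathway list were chosen with earlier results of these data known. The named genes are the 10 genes, *Wtap*, and the other pathway genes with a differential peak or with peaks in 1 list. Overlap and placing were tested on simulated data. Alternatives were filters on false discovery rate and fold enrichment, matching by position, other overlaps and other thresholds. Scripts ran on pandas 2.3.3, numpy 2.4.6 and matplotlib 3.10.9 under Python 3.11.15.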

Additional observations from a re-analysis of the deposited data

How the results depend on the processing

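The number of peaks of the 10 genes (22 and 28) was the same with a log10 false discovery rate under -5, a fold enrichment of at least 2 or matching by position, and 17 and 24 with a log10 false discovery rate under -10, a filter added after the data had been examined. The 22 control peaks met a *Wtap*-HKO peak under each overlap rule tried, whereas the *Wtap*-HKO peaks that met a control peak numbered 20, or 17 with at least 50% of their exonic bases shared. With a log10 false discovery rate of the difference under -5, 1 of the 3 differential peaks was left, that of *Smad6*. Dividing each list by its median fold enrichment moved the median log2 ratio at shared sites from -0.08 to -0.19. Of the other pathway genes, 4 had a lower and 2 a higher differential peak once a log2 fold change beyond 1 in size was required, an alternative added after the data had been examined. No paired analysis was possible because the lists combine the replicates and no result comes from a test across samples, and for the same reason no replicate could be left out. Since read totals are not in the lists, how weak a site could still be called, such as that of *Tgfbr1* in control livers, is unknown.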
